A study of Homo sapiens with 24 samples.

Results

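The genes of cellular iron handling, together with GPX4, the enzyme that holds back ferroptosis, were followed in SW1783 cells exposed to extracts of Schisandrae Fructus (SF). There were 10 genes: the transferrin receptor TFRC, the metal reductase STEAP3, the iron transporter SLC11A2, the ferritin subunits FTH1 and FTL, the ferritin cargo receptor NCOA4, the iron exporter SLC40A1, the iron regulatory proteins ACO1 and IREB2, and GPX4. They were chosen by name, with earlier results of these data known, and found through their Ensembl identifiers. All 10 were among the 60675 genes of the deposited table, 19586 of which are annotated as protein-coding. SW1783 is an established human astrocytoma cell line, and its genotype was the same in every group. Cells were harvested after 24 h. In batch A they received the water extract (WESF) at 20 (low), 100 (medium) or 500 (high) µg/mL, or vehicle A. In batch B they received the ethanol extract (EESF) at 12.4 (low), 62 (medium) or 310 (high) µg/mL, or vehicle B. Either vehicle was 0.1% DMSO, and each of the 8 groups had 3 libraries, 24 in all. According to the methods, the high dose of WESF was not toxic to the cells, whereas the high dose of EESF was set near a concentration that lowers their viability. Extract, batch and dose changed together, so a difference between WESF and EESF cannot be attributed to the extract alone.

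Iron enters most cells bound to transferrin, which TFRC carries into endosomes. There STEAP3 reduces the iron and SLC11A2 moves it to the cytosol. Iron that is not used at once is stored in ferritin, a shell of heavy (FTH1) and light (FTL) chains, and NCOA4 delivers ferritin to the lysosome so that the iron is set free again. SLC40A1, known as ferroportin, is the exporter. ACO1 (IRP1) and IREB2 (IRP2) are RNA-binding proteins that attach to iron-responsive elements when iron is scarce. In the 5′ UTR of ferritin and SLC40A1 mRNA they block translation, and in the 3′ UTR of TFRC mRNA they protect the message from decay. The level of TFRC mRNA therefore follows iron through this route, whereas that of ferritin protein can change without any change in its mRNA. Ferroptosis is a death by iron-dependent lipid peroxidation, and GPX4 reduces lipid hydroperoxides.

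Iron-responsive elements are shown because iron is known to act through them on the mRNA of ferritin, SLC40A1 and TFRC. The annotated transcripts of the 10 genes were searched on the sense strand for the loop CAGTGN, flanked by a stem of 5 base pairs (Watson-Crick or G-U) and preceded by an unpaired C directly below the stem. FTH1, FTL and SLC40A1 held 1 match each in the 5′ UTR, and TFRC held 4 in its 3′ UTR. The other 6 genes held none, which says only that this pattern is not in their annotated UTRs. An element with another stem or loop would be missed, so these 6 genes are not shown to lack one. Of 19347 protein-coding genes searched in the same way, 0.202% had a match in the 5′ UTR and 0.734% in the 3′ UTR. The capitals mark the loop, the sequences are DNA letters read 5′ to 3′ from the GENCODE 44 transcripts, and positions are on GRCh38.
FTH1, 5′ UTR, chr11:61967574-61967602, minus strand: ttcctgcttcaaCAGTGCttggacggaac
FTL, 5′ UTR, chr19:48965335-48965363, plus strand: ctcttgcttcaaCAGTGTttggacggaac
SLC40A1, 5′ UTR, chr2:189580661-189580689, minus strand: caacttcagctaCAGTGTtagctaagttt
TFRC, 3′ UTR, chr3:196050979-196051007, minus strand: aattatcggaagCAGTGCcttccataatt
TFRC, 3′ UTR, chr3:196050575-196050603, minus strand: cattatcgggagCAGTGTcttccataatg
TFRC, 3′ UTR, chr3:196050510-196050538, minus strand: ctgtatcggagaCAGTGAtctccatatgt
TFRC, 3′ UTR, chr3:196050463-196050491, minus strand: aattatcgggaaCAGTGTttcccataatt

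Levels are given as CPM, a gene's count as a share of its library (counts per 1000000) after TMM scaling over all 24 libraries. Depth was between 18727797 and 32567395 counts per library. It was lowest in vehicle B (18727797 to 20465712) and highest in high-dose EESF (29659110 to 32567395), so it moved with that comparison. In batch A it was 26447834 to 28461841 in vehicle A and 20731749 to 24692309 in high-dose WESF. CPM are shares of a library, so in these bulk samples fewer cells of a kind and less RNA per cell cannot be told apart. Nothing in the labels says that the 3 libraries of a group came from separate cultures, so p-values measure the spread between libraries, which may be technical.

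The labelled cell type was checked against its markers. Of 10 astrocyte genes, 4 reached 1 CPM in the vehicles, namely GJA1 (206 CPM), SOX9 (83.9 CPM), GLUL (61.0 CPM) and SLC1A3 (31.8 CPM). The defining astrocyte genes GFAP (0.0923 CPM), S100B (0.0602 CPM) and AQP4 (0.00853 CPM) were near 0. Of the glioma and mesenchymal genes, VIM (4870 CPM), FN1 (4630 CPM), COL1A1 (3800 CPM), CD44 (2870 CPM) and TNC (791 CPM) were abundant. NES was far lower (7.02 CPM). The summed level of 5 microglia and macrophage markers moved with the high doses, from 14.1 to 4.04 CPM in batch A and from 13.7 to 4.28 CPM in batch B. Its most abundant gene was PTPRC (9.99 CPM in the vehicles), while the defining marker AIF1 had 1 count in 24 libraries. Neuron markers summed to 59.2 CPM in vehicle A and 30.1 CPM in high-dose WESF, and to 62.2 CPM in vehicle B and 35.3 CPM in high-dose EESF. The sum was mostly SNAP25 (28.5 CPM in the vehicles) and SYT1 (26.1 CPM), with RBFOX3 at 0.125 CPM. SYN1 (5.93 CPM in the vehicles) lay between 5.20 and 9.80 CPM in all libraries. Astrocyte markers also summed to less at the high doses (380 to 308 CPM in batch A and 386 to 292 CPM in batch B), as did glioma and mesenchymal markers (16900 to 14800 and 17000 to 14800 CPM). Oligodendrocyte markers summed to more (7.05 to 12.9 CPM and 6.93 to 9.84 CPM), where MBP was the most abundant gene (6.70 CPM in the vehicles) and the defining marker MOG was at 0 in all libraries. Hepatocyte markers went from 5.67 to 7.18 and from 6.74 to 8.53 CPM, mostly SERPINA1 (6.13 CPM in the vehicles), with the defining marker ALB at 0.0397 CPM. Endothelial markers went from 1.20 to 0.707 and from 1.14 to 0.85 CPM, mostly PECAM1. The part of these markers in the results was not tested. Erythroid markers, whose cells use much iron, stayed between 0.122 and 0.190 CPM in sum.

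Compared per kilobase of merged exons, ferritin stood far above the rest of the group in the vehicles. FTL reached 1510 CPM per kb, rank 16 of 19586 protein-coding genes, and FTH1 reached 601 CPM per kb, rank 31. TFRC (65.8 CPM per kb) and GPX4 (59.1 CPM per kb) followed, then NCOA4 (41.4 CPM per kb), STEAP3 (32.7 CPM per kb) and ACO1 (15.1 CPM per kb). IREB2 (5.28 CPM per kb) and SLC11A2 (4.51 CPM per kb) were lowest among the genes that could be tested. With the length of the canonical transcript in their place, the last 2 changed order, at 9.01 CPM per kb for IREB2 and 10.8 CPM per kb for SLC11A2, and the values were higher for TFRC (228 CPM per kb), GPX4 (128 CPM per kb) and FTH1 (1000.0 CPM per kb).

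**Figure D1:**
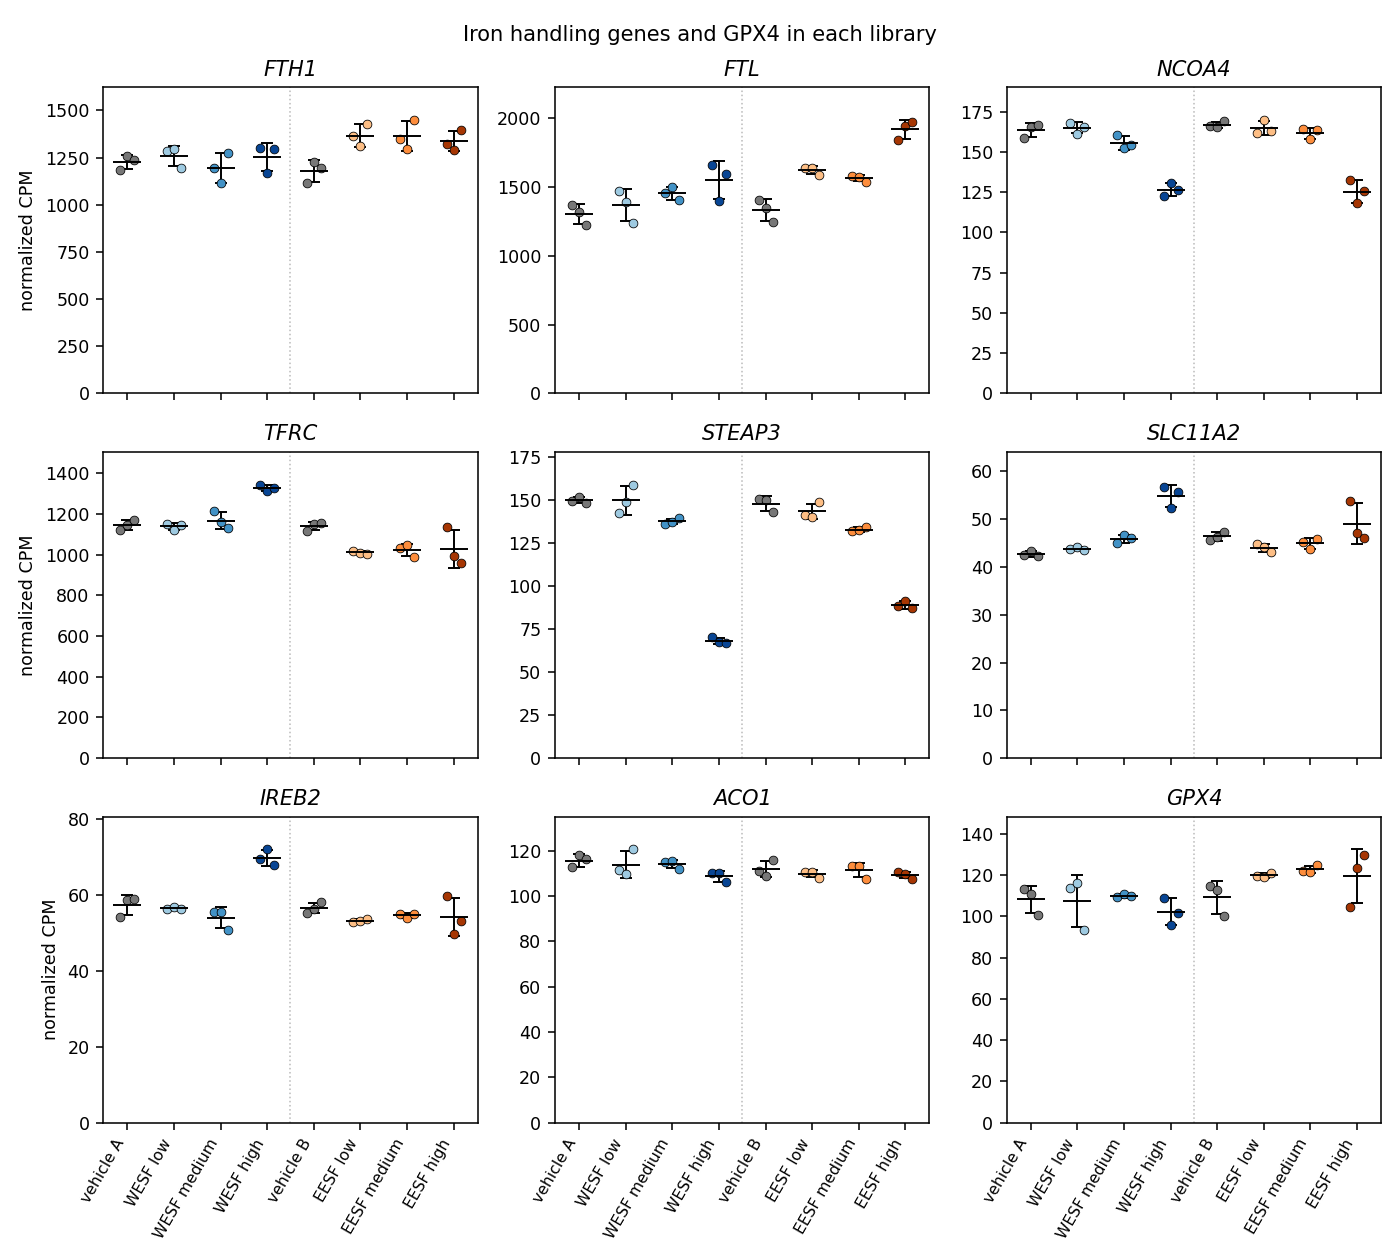
Normalized CPM (y axis, linear from 0) of the 9 tested genes in each library, by group (x axis); points are libraries, the dash and bar are mean ± SD (n = 3), and the dotted line divides batch A from batch B. STEAP3 fell from 148 to 152 CPM in vehicle A to between 66.9 and 70.3 CPM in high-dose WESF, while FTL rose from at most 1405 CPM in vehicle B to at least 1839 CPM in high-dose EESF.

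SLC40A1 had almost no counts. It had 13 counts over 24 libraries and none in 14 of them, with at most 2 counts in a library. This is below the limit of 3 counts that a count of 0 allows, which is 0.101 to 0.160 CPM in the shallowest library of each group. It was therefore not tested, and 9 genes remained. At this depth the mRNA of ferroportin was too scarce to compare between groups. HAMP, the hormone that degrades ferroportin, had 1 count in all.

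The 9 genes were tested with edgeR's quasi-likelihood test across all protein-coding genes that passed a filter on low counts, with Benjamini-Hochberg adjustment over those genes. A gene was called at an adjusted p under 0.05, and it was a DEG when its fold change also passed 1.5 (0.585 on the log2 scale). In high-dose WESF, TFRC, SLC11A2, FTL and IREB2 rose and STEAP3 and NCOA4 fell. Against vehicle A, 34.3% of 13129 genes were called higher and 34.6% lower, so 4 higher and 2 lower of 9 is near the background. In high-dose EESF, FTH1 and FTL rose and STEAP3 and NCOA4 fell, beside 29.3% of 13092 genes called higher and 28.7% lower. STEAP3 was the only DEG at either high dose. Lower DEGs made up 13.0% of genes in high-dose WESF and 9.17% in high-dose EESF. The median log2 fold change of the 9 genes was 0.03 in high-dose WESF and -0.03 in high-dose EESF, against 0.00 and 0.01 for all genes.

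The lower doses differed between the extracts in how many of these genes passed. Medium-dose EESF gave 3 higher (FTH1, FTL, GPX4) and 2 lower (TFRC, STEAP3), beside 6.90% and 8.48% of 12978 genes. Low-dose EESF gave 2 higher (FTH1, FTL) and 1 lower (TFRC), beside 3.11% and 6.24% of 12892 genes. Medium-dose WESF gave 0 by edgeR, where 4.10% of 13112 genes were called; 3 genes had an unadjusted p under 0.05 and DESeq2 called 1. Low-dose WESF gave 0, as for 0% of 13131 genes, with 0 genes at an unadjusted p under 0.05 and 0 called by DESeq2. There the 9 log2 fold changes lay between -0.02 and 0.07. At these doses the number of all genes called depended on single libraries. It was 1997 in medium-dose EESF and 791 to 2838 with 1 library left out, moving by over 1.5 times without vehicle B replicate 2 or 3 or medium-dose replicate 2 or 3. It was 1206 in low-dose EESF and 213 (without vehicle B replicate 2) to 2679 (without vehicle B replicate 1), moving so without any 1 of the 6 libraries. It was 537 in medium-dose WESF and 72 (without medium-dose replicate 3) to 1560 (without vehicle A replicate 1), moving so without any 1 library but medium-dose replicate 1, and it was 185 with a replicate block. The difference between extracts was not tested at the lower doses. The 3 doses of an extract share their vehicle libraries, so their changes are not independent.

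**Figure D2:**
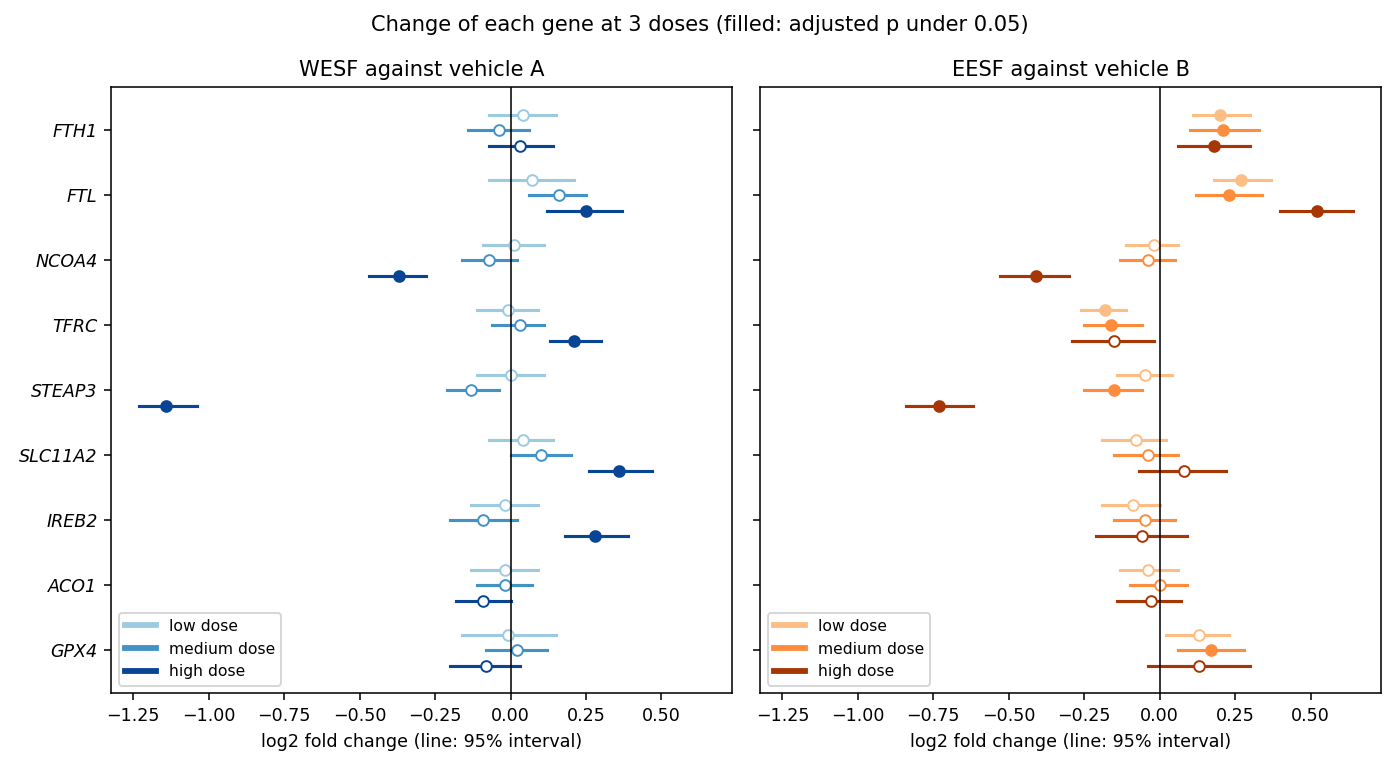
Log2 fold change (x axis) with its 95% interval (line) for 9 genes (y axis) at 3 doses of WESF (left, blue) and EESF (right, orange); filled points passed an adjusted p of 0.05. Ferritin is filled at all 3 doses of EESF, STEAP3 and NCOA4 lie left of 0 at both high doses, and SLC11A2 and IREB2 are filled only in high-dose WESF.

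The vehicles were compared to see how far these genes differed between batches without an extract. Log2 differences of vehicle B from vehicle A were between -0.06 (FTH1) and 0.12 (SLC11A2). None of the 9 genes was called by edgeR or DESeq2, and 0% of 13001 genes were by edgeR; SLC11A2 alone had an unadjusted p under 0.05 (0.0265). Vehicle libraries of the same number deviated together, so the fit with the replicate number as a block is also given. With it 3.68% of 13001 genes were called. FTH1 was lower in vehicle B by a log2 difference of -0.06 (SE 0.0078, adjusted p = 5.27e-06) and FTL higher by 0.03 (SE 0.0059, adjusted p = 0.0017).

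STEAP3, the endosomal ferrireductase, showed the largest change among the 9 genes. Its 3 libraries held 149.7, 152.0 and 148.3 CPM in vehicle A and 70.3, 67.7 and 66.9 CPM in high-dose WESF. In batch B they held 150.8, 150.1 and 142.9 CPM in vehicle B and 88.7, 91.4 and 87.2 CPM in high-dose EESF. Every high-dose library lay far below every vehicle library, with no overlap in either batch. STEAP3 fell by 54.5% in high-dose WESF (log2 fold change -1.14, SE 0.044, adjusted p = 1.15e-12) and fell by 39.8% in high-dose EESF (-0.73, SE 0.050, adjusted p = 2.23e-07). The fall was larger with WESF by 0.41 on the log2 scale (SE 0.060, adjusted p = 2.59e-04 for the interaction).

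At the medium doses STEAP3 held 136.3, 137.4 and 139.4 CPM with WESF and 131.9, 132.4 and 134.3 CPM with EESF. All 6 libraries lay below their vehicle, though by little. The change was -0.15 with EESF (SE 0.044, adjusted p = 0.0277) and -0.13 with WESF (SE 0.039, adjusted p = 0.0846), so that the first passed. The EESF call was lost without any of its own 3 libraries or without vehicle B replicate 2 (adjusted p between 0.0749 and 0.125), and the WESF value passed without vehicle A replicate 1 (adjusted p = 0.0462). Low-dose libraries overlapped the vehicles. The antisense gene STEAP3-AS1, on the opposite strand, had 374 counts in 24 libraries against 74473 for STEAP3, or 0.503%.

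TFRC, the receptor that takes up transferrin, moved in opposite directions with the 2 extracts. It held 1119.7, 1145 and 1169 CPM in vehicle A and 1343, 1315 and 1328 CPM in high-dose WESF. The high-dose libraries lay above the vehicle without overlap and above both lower doses. TFRC rose 1.16-fold (log2 fold change 0.21, SE 0.042, adjusted p = 2.34e-04). Medium- and low-dose WESF gave log2 fold changes of 0.03 (95% interval -0.06 to 0.11) and -0.01 (-0.11 to 0.09).

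With EESF, TFRC was already lower at the low dose. It held 1117, 1152 and 1153 CPM in vehicle B, 1019, 1009.5 and 1004 CPM at the low dose and 1032, 1047 and 988 CPM at the medium dose. All 6 of these treated libraries lay below the vehicle. TFRC fell by 11.9% at the low dose (log2 fold change -0.18, SE 0.036, adjusted p = 0.00907) and by 10.2% at the medium dose (-0.16, SE 0.046, adjusted p = 0.0318). The low-dose call was lost without vehicle B replicate 2 or low-dose replicate 2 or 3 (adjusted p up to 0.0619) and with all groups of batch B in the fit (adjusted p = 0.0534). The medium-dose call was lost without vehicle B replicate 2 or 3 or medium-dose replicate 2 or 3 (adjusted p up to 0.144).

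High-dose EESF held 1134 CPM in replicate 1 and 993 and 957 CPM in the other 2, so that the group overlapped vehicle B. The change was -0.15 (SE 0.062, adjusted p = 0.0526) and did not pass, and it lay within its error of the low dose (high against low dose 0.03, 95% interval -0.10 to 0.15). Replicate 1 stood apart from the other 2 across genes as well, with an SD of log2 differences of 0.139 and 0.157 against 0.0982 between those. Without it TFRC fell by 0.23 on the log2 scale (adjusted p = 9.6e-04). It also passed without vehicle B replicate 1 (-0.18, adjusted p = 0.0499), by DESeq2 (-0.16, adjusted p = 0.0325), and in edgeR with the size factors of DESeq2, with no filter on low counts, with all genes of the table or with all groups of batch B in the fit (adjusted p between 0.0187 and 0.0483). The responses to the high doses differed by -0.36 (SE 0.075, adjusted p = 0.00264), EESF below WESF.

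SLC11A2, which moves iron out of endosomes, rose against its vehicle only in high-dose WESF. It held 42.5, 43.4 and 42.3 CPM in vehicle A, 45.0, 46.6 and 46.0 CPM at the medium dose and 56.7, 52.3 and 55.7 CPM at the high dose. The 4 groups of batch A did not overlap and lay in the order of dose, with low-dose WESF at 43.5 to 44.2 CPM. SLC11A2 rose by 28.5% at the high dose (log2 fold change 0.36, SE 0.049, adjusted p = 5.17e-06), and the medium dose did not pass (0.10, SE 0.046, adjusted p = 0.229).

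In batch B, SLC11A2 held 45.6, 46.3 and 47.4 CPM in vehicle B and 53.9, 47.2 and 46.0 CPM in high-dose EESF, where replicate 1 was again the library apart. The change was 0.08 (95% interval -0.07 to 0.22) and did not pass. The responses to the high doses differed by -0.28 (SE 0.083, adjusted p = 0.0201). This call was lost without high-dose EESF replicate 2 or 3 (adjusted p = 0.0506 and 0.0543). High-dose EESF was above low-dose EESF (0.16, SE 0.063, adjusted p = 0.0460), a call that was lost without its replicate 1 (0.08, adjusted p = 0.135) or any 1 low-dose library (adjusted p up to 0.151), by DESeq2 (adjusted p = 0.0643) and with all genes of the table (adjusted p = 0.0638).

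Of the ferritin subunits, FTL, the light chain, rose with both extracts. It held 1368, 1319 and 1223 CPM in vehicle A and 1658, 1395 and 1595 CPM in high-dose WESF. It held 1405, 1347 and 1247 CPM in vehicle B and 1839, 1941 and 1969.7 CPM in high-dose EESF. High-dose libraries lay above their vehicle without overlap, with a wide gap in batch B and a narrow one in batch A. FTL rose by 18.8% in high-dose WESF (log2 fold change 0.25, SE 0.059, adjusted p = 0.00127) and by 43.8% in high-dose EESF (0.52, SE 0.055, adjusted p = 6.59e-06).

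The lower doses of EESF also raised FTL. Low-dose libraries held 1635, 1641 and 1588 CPM and medium-dose libraries 1576, 1573 and 1539 CPM. All 6 lay between vehicle B and the high dose. FTL rose by 20.9% at the low dose (log2 fold change 0.27, SE 0.042, adjusted p = 0.00292) and by 17.4% at the medium dose (0.23, SE 0.051, adjusted p = 0.00672), and high-dose EESF was above the low dose by 0.24 (SE 0.044, adjusted p = 3.73e-04). Medium-dose WESF, at 1457, 1499 and 1405 CPM, was above every vehicle A library but did not pass (0.16, SE 0.046, adjusted p = 0.0733). It passed without vehicle A replicate 1 (0.19, adjusted p = 0.0129). The responses to the high doses differed by 0.28 (SE 0.089, adjusted p = 0.0309), and this call was lost without any 1 of 7 of the 12 libraries (vehicle A replicates 1 and 2, vehicle B replicates 2 and 3, high-dose WESF replicate 2, high-dose EESF replicates 2 and 3), with adjusted p up to 0.0943.

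FTH1, the heavy chain that oxidizes iron, rose with EESF at every dose. It held 1116, 1225 and 1197 CPM in vehicle B, 1363, 1311 and 1428 CPM at the low dose, 1349, 1294 and 1449 CPM at the medium dose and 1323, 1292 and 1395 CPM at the high dose. All 9 treated libraries lay above vehicle B, and the 3 doses overlapped each other. The log2 fold changes were 0.20 at the low (SE 0.045, adjusted p = 0.0145), 0.21 at the medium (SE 0.054, adjusted p = 0.0151) and 0.18 at the high dose (SE 0.054, adjusted p = 0.0126). These calls were lost without low-dose replicate 1 or 3, medium-dose replicate 3, high-dose replicate 3 or, at the high dose, vehicle B replicate 1 (adjusted p between 0.0600 and 0.0936).

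In batch A, FTH1 held 1186, 1261 and 1236 CPM in vehicle A and 1300.3, 1169 and 1296 CPM in high-dose WESF. The groups overlapped, and the change was 0.03 (95% interval -0.07 to 0.14, adjusted p = 0.593). The difference between the responses to the high doses did not pass (0.15, 95% interval -0.01 to 0.31, adjusted p = 0.144). The ratio of FTH1 to FTL in CPM was 0.888 ± 0.085 (SD, n = 3) in vehicle B and 0.698 ± 0.028 in high-dose EESF, and it was 0.945 ± 0.072 in vehicle A and 0.812 ± 0.027 in high-dose WESF. The ratio was lower in every high-dose library than in every vehicle library of its batch, although in batch A high-dose replicate 2 (0.838) was close to vehicle A replicate 1 (0.867). Medium-dose WESF had nearly the mean of high-dose WESF, at 0.825 ± 0.082, with libraries at 0.819, 0.746 and 0.909 that overlapped vehicle A. Low-dose WESF held 0.925 ± 0.046, and low- and medium-dose EESF held 0.844 ± 0.051 and 0.873 ± 0.061.

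Ferritin genes have many processed pseudogenes, which can share reads with their parent. The table held 25 FTH1 pseudogenes with 2877 counts in 24 libraries against 750783 for FTH1 (0.382%), and 16 FTL pseudogenes with 628 counts against 897699 for FTL (0.0699%). Summing parent and pseudogenes changed no call. BEST1, which overlaps FTH1 on the opposite strand, had 2300 counts (0.306% of FTH1).

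NCOA4, the receptor that sends ferritin to lysosomal breakdown, fell at both high doses. It held 158.5, 165.5 and 166.6 CPM in vehicle A and 122.9, 130.6 and 126.1 CPM in high-dose WESF. It held 166.0, 165.2 and 169.0 CPM in vehicle B and 132.3, 118.0 and 125.8 CPM in high-dose EESF. High-dose libraries were below their vehicles without overlap and were alike in both batches. NCOA4 fell by 22.7% with WESF (log2 fold change -0.37, SE 0.044, adjusted p = 1.13e-06) and by 24.8% with EESF (-0.41, SE 0.054, adjusted p = 3.77e-05).

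The lower doses gave NCOA4 log2 fold changes between -0.07 and 0.01, and none passed. High against low dose, which leaves the vehicles out, gave -0.38 in WESF (SE 0.041, adjusted p = 1.24e-06) and -0.39 in EESF (SE 0.050, adjusted p = 2.39e-05). The responses to the high doses differed by -0.04 (95% interval -0.18 to 0.10, adjusted p = 0.708).

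IREB2, the iron regulatory protein that is itself degraded when iron is plentiful, rose only in high-dose WESF. It held 54.3, 58.8 and 59.0 CPM in vehicle A and 69.5, 72.1 and 68.1 CPM in high-dose WESF. The high dose lay above the 9 other libraries of its batch, among which low-dose WESF held 56.3 to 56.8 CPM and medium-dose WESF 50.9 to 55.7 CPM. IREB2 rose by 21.7% (log2 fold change 0.28, SE 0.049, adjusted p = 7.32e-05). In batch B it held 55.3, 56.5 and 58.1 CPM in vehicle B and 59.8, 49.8 and 53.2 CPM in high-dose EESF. These overlapped (-0.06, 95% interval -0.21 to 0.09), and the responses differed by -0.34 (SE 0.086, adjusted p = 0.00851).

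ACO1, which serves as an aconitase when it holds an iron-sulfur cluster and as IRP1 when it does not, was called in no comparison. It held 112.6, 118.0 and 116.2 CPM in vehicle A and 110.0, 110.2 and 106.0 CPM in high-dose WESF. These libraries did not overlap, but the difference was small (-0.09, SE 0.044, adjusted p = 0.0788) and passed only without vehicle A replicate 1 (-0.11, adjusted p = 0.0226). In EESF the 9 treated libraries held 107.6 to 113.1 CPM against 108.8 to 115.7 CPM in vehicle B, with log2 fold changes from -0.04 upwards and none past the threshold.

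GPX4, the selenoenzyme that removes lipid hydroperoxides, varied more between replicates than most of the others. It held 114.8, 112.6 and 100.3 CPM in vehicle B, 119.5, 119.0 and 121.2 CPM at the low dose of EESF and 121.9, 121.6 and 125.0 CPM at the medium dose. The lower doses lay above vehicle B without overlap. GPX4 rose by 12.6% at the medium dose (log2 fold change 0.17, SE 0.052, adjusted p = 0.0348), and the low dose did not pass (0.13, SE 0.049, adjusted p = 0.121). The medium-dose call was lost without vehicle B replicate 2 or 3 or any medium-dose library (adjusted p up to 0.164), when all genes of the table were tested (0.15, adjusted p = 0.0725) and when all groups of batch B entered the fit (0.16, adjusted p = 0.105). The low-dose value passed without vehicle B replicate 1 (0.16, adjusted p = 0.0281).

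High-dose EESF held 104.8, 123.5 and 130.0 CPM of GPX4, a wide range that overlapped vehicle B (0.13, 95% interval -0.04 to 0.30). Without replicate 1 it passed (0.21, adjusted p = 0.00875), and so did the difference between the extracts (0.29, adjusted p = 0.0197), which was 0.21 (SE 0.11, adjusted p = 0.152) with all libraries. High-dose WESF held 109.1, 96.0 and 101.6 CPM against 113.4, 110.7 and 100.9 CPM in vehicle A. These overlapped (-0.08, 95% interval -0.20 to 0.03), and the change passed only without vehicle A replicate 3 (-0.13, adjusted p = 0.0394).

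Leaving the vehicles out, high-dose WESF against low-dose WESF gave 4 higher (TFRC, SLC11A2, FTL, IREB2) and 2 lower genes (NCOA4, STEAP3), beside 34.1% of 13100 genes called higher and 34.1% lower. FTL was the weakest of these (0.18, SE 0.068, adjusted p = 0.0282). It was lost by DESeq2 (adjusted p = 0.109) and without low-dose WESF replicate 2 or 3 or high-dose replicate 1 or 3 (adjusted p up to 0.175). High-dose against low-dose EESF gave 2 higher (FTL, SLC11A2) and 2 lower (NCOA4, STEAP3), beside 28.7% and 28.4% of 13197 genes. FTH1 and TFRC, which were already called at the low dose, were not among them. FTH1 differed between these doses by -0.03 (95% interval -0.13 to 0.07).

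The responses to the high doses were compared as an interaction over 12 libraries. EESF was higher than WESF for 2 genes (FTL, STEAP3) and lower for 3 (TFRC, IREB2, SLC11A2), beside 12.7% and 13.3% of 13376 genes. STEAP3 fell with either extract, and FTL rose with either. For TFRC, IREB2 and SLC11A2 the rise was called with WESF alone. A block of replicate numbers within each batch pairs treated and vehicle libraries of the same number, and it called 16.8% of all genes in either direction. With it 3 of these 5 calls remained, and FTL (adjusted p = 0.0661) and SLC11A2 (adjusted p = 0.0589) were lost. A block of the vehicle numbers alone, shared by both batches and added after seeing the data, lost neither.

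**Figure D3:**
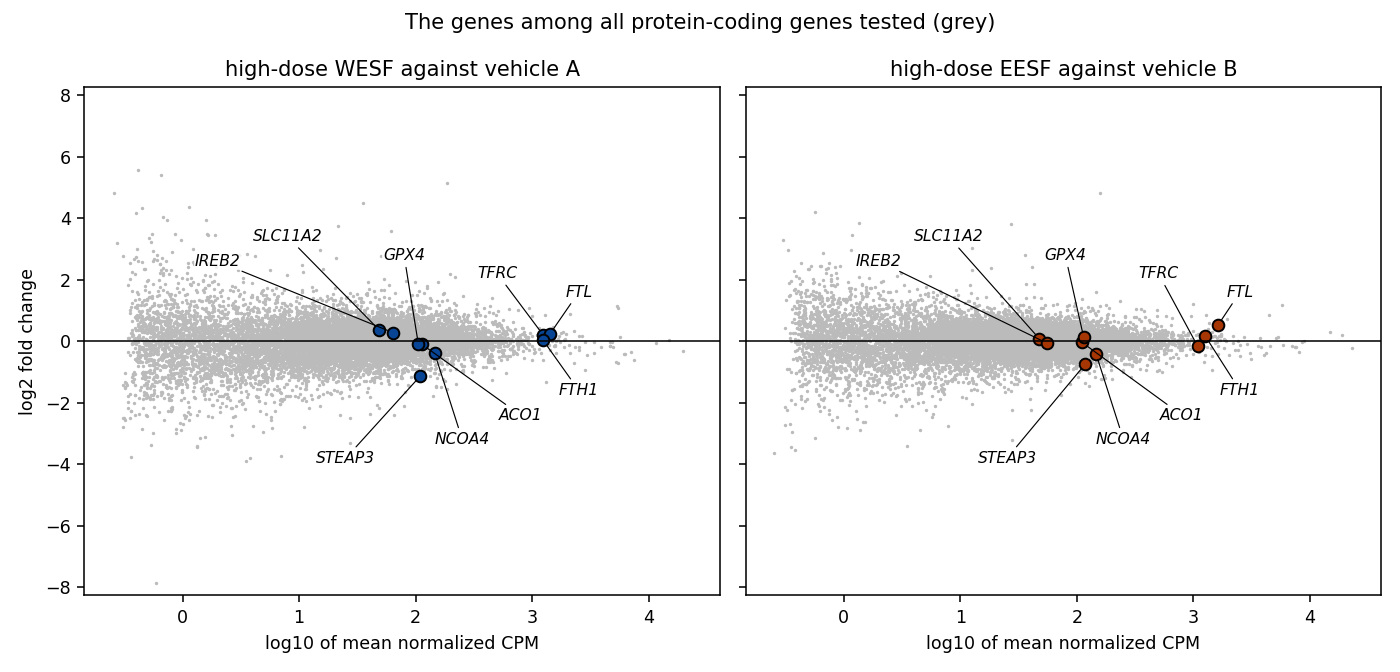
Log2 fold change (y axis) against the log10 of the mean normalized CPM (x axis) of all protein-coding genes tested (grey points), with the 9 genes marked, in high-dose WESF (left) and high-dose EESF (right). FTL, FTH1 and TFRC sit at the abundant end with changes below 0.6, and STEAP3, at -1.14 and -0.73, lies lowest of the 9.

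The genes whose pattern over the 24 libraries was most like that of STEAP3 were sought among 9549 genes with a mean of at least 10 CPM, on log2 values centred on the vehicle of the batch. They were EPHB2 (Pearson r = 0.995), PHLDB1 (0.994), SIRPA (0.992), CHPF2 (0.991) and LYPD1 (0.990). The points share their libraries and the contrast of high dose against the rest, so the values are a description. EPHB2 was lower by 1.28 on the log2 scale in high-dose WESF and by 0.80 in high-dose EESF, and LYPD1 by 2.25 and 1.49.

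Promoters were searched for the core antioxidant response element, TGACNNNGC on either strand, since NRF2 is known to drive ferritin through such elements. Of 16 RefSeq windows (250 bases before to 50 after a start, GRCh38.p14) for 9 of the genes, 1 held a match, at an alternative start of NCOA4. Among all 35116 windows 13.3% held one. The known ferritin elements can lie outside such windows, and a missing match says nothing about the factor.

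The surrounding pathways were followed through 148 genes in 5 lists, of which 130 could be tested in each high-dose comparison. In high-dose WESF 51 rose and 47 fell, and in high-dose EESF 53 rose and 35 fell. Of all genes, 34.3% were called higher and 34.6% lower in high-dose WESF, and 29.3% and 28.7% in high-dose EESF. The counts of each list below stand beside these shares, and whether a list departs from them was not tested. Medium-dose WESF called 3 higher and 5 lower of 129, medium-dose EESF 7 higher and 9 lower of 130, and low-dose EESF 1 higher and 2 lower of 129. Low-dose WESF called 0 by edgeR. The lists' median log2 fold changes lay between -0.14 and 0.17 in high-dose WESF and between -0.15 and 0.14 in high-dose EESF.

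Among 30 genes of iron uptake, export and storage, 20 were tested, 6 rose and 7 fell in high-dose WESF, and 7 rose and 10 fell in high-dose EESF. BMP6, the ligand that induces hepcidin in liver, had a mean below 1 CPM in every group except the high doses. It met the limit of 1 CPM for named genes only through these. Its values are therefore a description: BMP6 rose (log2 fold change 1.93, SE 0.22, and 0.87, SE 0.23, for WESF and EESF). So did the mitochondrial iron importer SLC25A28 (0.54 and 0.76) and FBXL5, the ubiquitin ligase subunit that degrades iron regulatory proteins (0.38 and 0.19), although the call of FBXL5 with EESF was lost without vehicle B replicate 1 or 3 or high-dose EESF replicate 1 or 3 and with a replicate block (adjusted p between 0.0601 and 0.0935). FLVCR2, a transporter of the FLVCR family, held 1.425 and 1.463 CPM in vehicles A and B and 0.633 and 0.622 CPM in high-dose WESF and EESF. It met the limit of 1 CPM only through the vehicles, so its fall (-1.17, SE 0.27, and -1.24, SE 0.31) is a description too. The BMP coreceptor NEO1 (-0.75 and -0.82) and the lysosomal channel MCOLN1 (-0.78 and -0.50) also fell. Of the 10 genes not tested, which include the plasma proteins TF and CP, none exceeded 0.444 CPM in any library.

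The genes of heme were all tested, 19 in number, and 8 rose and 8 fell in high-dose WESF and 10 rose and 7 fell in high-dose EESF. HMOX1, the inducible heme oxygenase that frees iron from heme, had 56.9 ± 1.49 CPM in vehicle A and 112.9 ± 4.17 CPM in high-dose WESF (SD, n = 3). On the log2 scale HMOX1 was higher by 0.99 with WESF (SE 0.046, adjusted p = 1.12e-11) and by 0.53 with EESF (SE 0.069, adjusted p = 3.83e-05). Of the synthesis enzymes, ALAS1, the first and rate-limiting step, rose (0.64 and 0.49), PPOX rose (0.38 and 0.56), and ALAD (-0.94 and -0.70) and UROS (-0.90 and -0.53) fell. BLVRA, which turns biliverdin into bilirubin, rose (0.42 and 0.54).

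Of 33 genes of iron-sulfur cluster assembly, 11 rose and 13 fell in high-dose WESF and 14 rose and 5 fell in high-dose EESF. The cysteine desulfurase NFS1 rose alike (0.71 and 0.72). NFU1 fell (-0.71 and -0.44), as did CISD2 (-0.28 and -0.46), and BOLA1 rose (0.45 and 0.75), although with WESF it was lost by DESeq2 (adjusted p = 0.0585) and without vehicle A replicate 3 or high-dose WESF replicate 1. CISD3 fell only with WESF (-0.63, with 0.02 in EESF), and HSCB rose only with EESF (0.46, with 0.03 in WESF). HSCB held 6.19 CPM in vehicle A and 6.33 CPM in high-dose WESF, and 5.06 CPM in vehicle B and 6.96 CPM in high-dose EESF, so that the vehicles lay further apart than the high doses.

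Of 32 genes of ferroptosis defence, 16 rose and 8 fell in high-dose WESF and 13 rose and 6 fell in high-dose EESF. SLC7A11, the cystine importer that supplies glutathione synthesis and so GPX4, had 128.5 ± 13.3 CPM in vehicle A and 219.7 ± 4.31 CPM in high-dose WESF. It rose by 0.77 with WESF (SE 0.060, adjusted p = 6.27e-09) and by 0.25 with EESF (SE 0.086, adjusted p = 0.0247), the latter lost without vehicle B replicate 1 or 2 or high-dose EESF replicate 1 and with a replicate block (adjusted p = 0.0571). The transsulfuration enzymes CTH (1.67 and 0.92) and CBS (0.94 and 0.71) and the thioredoxin reductase TXNRD1 (0.83 and 0.65) rose. SEPSECS, needed to make selenocysteine for GPX4, rose with WESF (0.97), and its rise with EESF (0.26, adjusted p = 0.0404) was lost in 10 of 13 alternatives, namely by DESeq2 (adjusted p = 0.162), with a replicate block (adjusted p = 0.0707), with no filter on low counts (adjusted p = 0.0535), with all genes of the table (adjusted p = 0.0588) and without any 1 of the 6 libraries.

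CHMP6, a membrane repair protein, fell with WESF (-1.10) and less with EESF (-0.23, adjusted p = 0.0384, lost without vehicle B replicate 1 or 2 or high-dose EESF replicate 1 or 2 and, at an adjusted p of 0.0734, with a replicate block). AIFM2, which guards membranes beside GPX4, gave -0.15 and 0.15 and did not pass with either.

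Of 34 genes of ferroptosis promotion 26 were tested, and 10 rose and 11 fell in high-dose WESF and 9 rose and 7 fell in high-dose EESF. The largest rises were those of PTGS2, SAT1, ATF3 and CHAC1. PTGS2, a common readout of ferroptosis, held 83.8 ± 3.91 CPM in vehicle A and 354.4 ± 9.93 CPM in high-dose WESF, and 86.8 ± 4.10 CPM in vehicle B and 183.4 ± 8.07 CPM in high-dose EESF. PTGS2 thus rose by 2.08 on the log2 scale with WESF (SE 0.048, adjusted p = 3.14e-15) and by 1.08 with EESF (SE 0.057, adjusted p = 4.21e-08). SAT1, a polyamine acetyltransferase, rose by 1.97 and 1.17, ATF3 by 1.74 and 1.00, and CHAC1, which degrades glutathione, by 1.62 and 1.00. ACSL4, which loads the lipids that are peroxidized, rose with WESF (0.23, SE 0.045, adjusted p = 2.02e-04) and gave -0.01 with EESF (95% interval -0.13 to 0.11). Of the 8 genes not tested, 5 were arachidonate lipoxygenases.

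**Figure D4:**
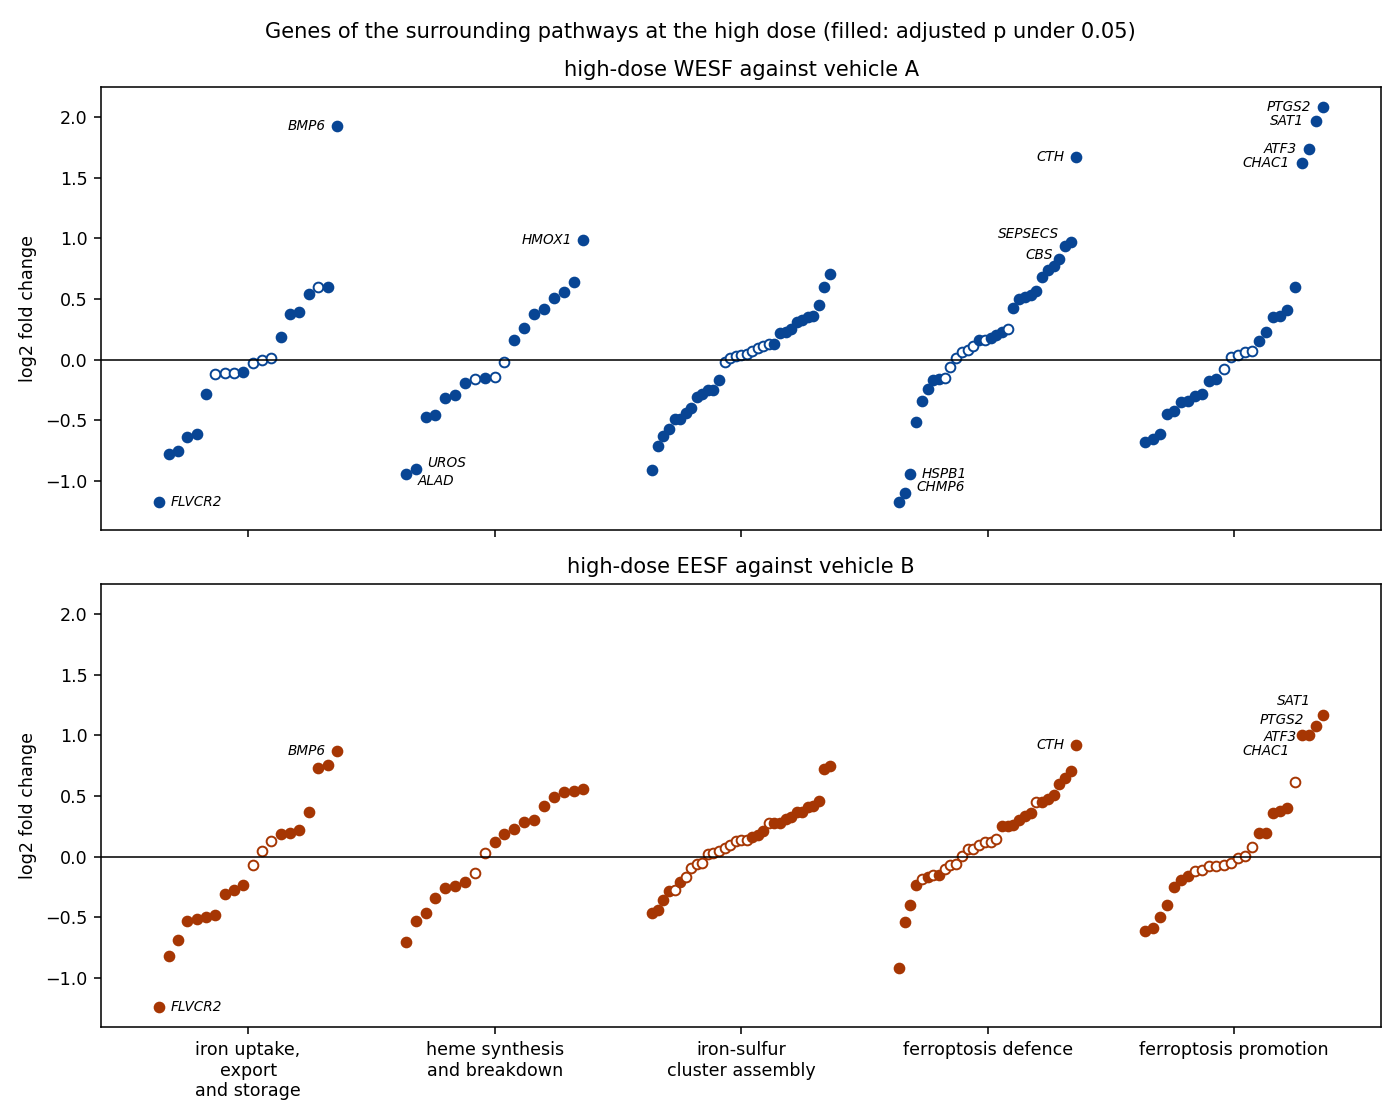
Log2 fold change (y axis) of the tested genes in 5 pathway lists (x axis, genes in rank order within a list) in high-dose WESF (top) and high-dose EESF (bottom); filled points passed an adjusted p of 0.05 and most called genes beyond 0.85 are named. Each list holds filled points on both sides of 0, and the highest are PTGS2 at 2.08 in WESF and SAT1 at 1.17 in EESF.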

How the data were processed

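Libraries of mRNA made from total RNA were sequenced for 24 samples (8 groups of 3). The authors trimmed reads with Trim Galore 0.6.6, aligned them with STAR 2.7.9a to GRCh38 and deposited expected counts per gene, estimated with RSEM 1.3.3 and neither normalized nor filtered (the tool versions are from the submitters' processing notes). RSEM divides reads that match several genes, and 10.9% of values are not whole; its strand setting is not given in the sources used here. Expected counts were rounded. Protein-coding genes (GENCODE 44) that passed filterByExpr were tested with edgeR 4.0.16 (TMM, quasi-likelihood, 2-sided, Benjamini-Hochberg) in R 4.3.3. Each fit used the 6 libraries of its comparison, or 12 for the difference between extracts. DESeq2 1.42.0, a later version of the tool that the study used, was an alternative. The script was tested on simulated data. Other alternatives changed the size factors, the filter, the genes, the groups in the fit, the replicate block, pseudogenes and single libraries.

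The 10 genes and all lists were chosen with earlier results of these data known. Named list genes were, per list and high dose, the 4 largest called changes with a mean of at least 1 CPM, and HMOX1, SLC7A11, FBXL5, HAMP, ACSL4 and AIFM2 whatever their value. Of the marker lists, all 8 are described above. Vehicle libraries of the same number deviated together between batches (r = 0.689, 0.363 and 0.622), and those of no other comparison did so for all 3 numbers. No replicate pair was so alike that it could be 1 library deposited again. The protein sequences of the genes were not analysed here, and some genes that met the rule are not reported here by name.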

Additional observations from a re-analysis of the deposited data

Results flagged for a closer look

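The responses to the high doses of EESF and WESF differed by the interaction test (edgeR, adjusted p under 0.05) for 5 of the 9 tested iron handling genes and for 16 of 30 named pathway genes that were tested, beside 12.7% of 13376 genes higher and 13.3% lower. Most of the 30 were named for a large change at a high dose, so 16 of 30 is raised by that choice, and over all the pathway lists it was 25 higher and 21 lower of 131. The iron handling genes were chosen with earlier results of these data known, so 5 of 9 may be raised by their choice as well. Extract, batch and dose (310 and 500 µg/mL) cannot be told apart in it. Differences are log2 fold changes in EESF minus those in WESF.

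Among the iron handling genes they were -0.36 for TFRC, -0.34 for IREB2, -0.28 for SLC11A2, 0.28 for FTL and 0.41 for STEAP3. SLC11A2 differed by 0.12 between the vehicles (vehicle B minus vehicle A, edgeR, unadjusted p = 0.0265, adjusted p = 1.0). The calls of FTL and SLC11A2 were lost with replicate numbers within each batch as a block (adjusted p = 0.0661 and 0.0589).

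Among genes that rose in WESF, the difference was -1.06 for BMP6, -1.0 for PTGS2, -0.80 for SAT1, -0.75 for CTH, -0.74 for ATF3, -0.71 for SEPSECS, -0.62 for CHAC1, -0.52 for SLC7A11 and -0.46 for HMOX1, so that the rise was smaller with EESF, and -0.24 for ACSL4, which was not called with EESF. BMP6 differed by 0.45 between the vehicles (0.729 CPM in vehicle A and 0.993 CPM in vehicle B, unadjusted p = 0.162, adjusted p = 1.0) and had a mean below 1 CPM in every group except the high doses. SLC25A28 rose more with EESF, by 0.23. Among genes that fell in WESF, it was 0.28 for MCOLN1, 0.38 for UROS and 0.87 for CHMP6, so that the fall was smaller with EESF, and 0.65 for CISD3, which was not called with EESF. HSCB, which was called with EESF alone, differed by 0.43. Its vehicles differed by -0.30 (vehicle B minus vehicle A, edgeR, unadjusted p = 0.0127, adjusted p = 1.0), a large share of that value.

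The calls of SLC25A28, MCOLN1 and HSCB were lost by DESeq2 (adjusted p = 0.106, 0.0909 and 0.0863), and that of SLC25A28 also with no filter on low counts (adjusted p = 0.0663). With replicate numbers within each batch as a block the calls of SLC25A28 (adjusted p = 0.0838), MCOLN1 (0.0858), HSCB (0.0564) and ACSL4 (0.0573) were lost. Of the 12 libraries, leaving out any 1 of 8 ended the call of MCOLN1 (adjusted p up to 0.103), any 1 of 7 that of SLC25A28 (up to 0.114), any 1 of 6 that of BMP6 (up to 0.0965) and either of 2 that of HSCB (up to 0.0514). That of ACSL4 was lost without vehicle A replicate 1 (adjusted p = 0.0518).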

How the results depend on the processing

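The falls of STEAP3 and NCOA4 and the rise of FTL, each at both high doses, passed under all 13 alternatives of their comparison. So did the rises of TFRC, SLC11A2 and IREB2 in high-dose WESF. The smallest change that 3 libraries a group can show was not measured, and several calls of small changes rest on single libraries, named above. The number of iron handling genes called in medium-dose WESF was 0, and 1 (FTL) by DESeq2 or with no filter on low counts. Leaving out each library in turn gave 6 to 7 genes in high-dose WESF, 0 to 2 in medium-dose WESF, 3 to 6 in high-dose EESF, 1 to 5 in medium-dose EESF, 1 to 4 in low-dose EESF and 3 to 6 for the difference between extracts. Calls among all genes were then 8405 to 9001 in high-dose WESF and 6485 to 7942 in high-dose EESF. They were 2576 to 4490 for the difference between extracts, and those at the medium doses and low-dose EESF are given above. A replicate block gave 2 iron handling genes (FTH1, FTL) between the vehicles, where it called 3.68% of all genes against 0% without it. For the difference between extracts the block was of replicate numbers within each batch. The block gave 3 iron handling genes there, and it called 2245 of 13376 genes against 3481 without it. It moved no other count of iron handling genes by over 1.5 times. In the other comparisons same-numbered libraries did not deviate together for all 3 numbers. A block of the vehicles alone, added after seeing the data, kept the difference near its count.

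Directions turned only for values near 0 that were not called. STEAP3 in low-dose WESF was -0.00055 by DESeq2, -0.00054 with its size factors, -0.0011 with all genes and -0.0049 with all groups, and FTH1 in high- against low-dose WESF was 0.0045 with all groups. Leaving out libraries gave -0.0015 to 0.08 for FTH1 in high-dose WESF. In medium-dose WESF it gave -0.09 to 0.01 for FTH1, -0.0039 to 0.05 for TFRC and -0.03 to 0.05 for GPX4. In low-dose WESF it gave -0.02 to 0.01 for TFRC, -0.06 to 0.00096 for IREB2, -0.06 to 0.01 for ACO1, -0.01 to 0.03 for NCOA4, -0.04 to 0.04 for STEAP3 and -0.06 to 0.09 for GPX4. In medium-dose EESF ACO1 gave -0.02 to 0.02. Between the vehicles it gave -0.01 to 0.07 for FTL, -0.02 to 0.01 for TFRC, -0.04 to 0.00048 for STEAP3 and -0.04 to 0.07 for GPX4. In high- against low-dose WESF FTH1 gave -0.04 to 0.05, and in EESF TFRC gave -0.05 to 0.08, IREB2 -0.04 to 0.09, ACO1 -0.02 to 0.01 and GPX4 -0.07 to 0.08. HSCB in high-dose WESF gave -0.01 to 0.07, and in high-dose EESF ACSL4 gave -0.05 to 0.03 and CISD3 -0.05 to 0.11. The cause was not tested. Of 110 recomputed list counts 1 moved by over 1.5 times, the iron list in the difference between extracts, from 7 to 3 with the block. Leaving out 1 library moved that count alone, to 3 or 4, without vehicle A replicate 1 or 2, high-dose WESF replicate 1 or 2, vehicle B replicate 2 or 3 or high-dose EESF replicate 3.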
